A study of Mus musculus with 8 samples.

Results

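The enzymes and droplet proteins that make, store and release triglyceride were followed in mouse liver 3 h after an injection of interleukin 1 beta (IL1B), a pro-inflammatory cytokine. They were 10 genes, picked by name: Lpin1, Lpin2, Gpam, Agpat2, Dgat1, Dgat2, Pnpla2, Pnpla3, G0s2 and Cidec. All 10 were found among the 22180 genes that remained when the array features carrying 1 gene symbol were averaged per symbol. Livers came from 8 male wild-type mice, bought at 7 weeks of age and acclimated for 2 weeks, of which 4 received the PBS vehicle and 4 received 0.5 µg of recombinant IL1B per mouse, both intraperitoneally and both for 3 h. Total RNA of each liver was hybridised to 1 Affymetrix MoGene 2.0 ST array. The labels give the strain background as C57BL/6J in the PBS group and as C57BL/6 x CBA in the IL1B group, while the series description names C57BL/6J alone. Strain label and treatment can therefore not be told apart, and this holds for every difference given here.

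Triglyceride is built in the endoplasmic reticulum by adding fatty acids stepwise to glycerol 3-phosphate. GPAM, an acyltransferase of the outer mitochondrial membrane, adds the first acyl chain and AGPAT2 the next, giving phosphatidate. The lipins remove its phosphate to give diacylglycerol, and DGAT1 and DGAT2 add the last chain. The product is stored in cytosolic droplets, on which CIDEC promotes the growth of large droplets, or is secreted by hepatocytes in very low density lipoprotein. It is broken down again by the lipase ATGL, the product of Pnpla2, which G0S2 inhibits. PNPLA3 is a droplet protein of the same family.

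All values are log2 values after robust multi-array averaging (RMA), on which 1 unit is a doubling of the signal. Array medians lay between 5.64 and 5.76, and the brightest background probe set of each array between 6.65 and 7.08. A gene below that mark in all arrays of a group was taken as at background there, and one within 1 unit of the common ceiling of 19.93 as saturated. Between any pair of arrays the correlation across genes was 0.965 to 0.993. Alb, Ttr and Apoa1, 3 defining markers of hepatocytes, were saturated on all 8 arrays, as were 7 of 8 hepatocyte markers in both groups, so that a change in the share of hepatocytes could not be read. In whole liver, fewer cells of a type and less RNA per cell cannot be told apart. IL1B 1 and IL1B 2 stood apart from IL1B 3 and IL1B 4 in leukocyte markers, as described beside Gpam.

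Promoter sequences in RefSeq (build GRCm38.p6) were found for 8 of the 10 genes, with 12 start sites in all, and for neither Dgat1 nor Dgat2. The 250 bases before the start are shown for Lpin1 and Lpin2, the related pair whose members moved most differently, and for G0s2, the member with the lowest log2 fold change. Each runs 5′ to 3′ on the strand of the gene, and capitals mark CpG dinucleotides.
Lpin1 (chr12:16610967-16611216, minus strand): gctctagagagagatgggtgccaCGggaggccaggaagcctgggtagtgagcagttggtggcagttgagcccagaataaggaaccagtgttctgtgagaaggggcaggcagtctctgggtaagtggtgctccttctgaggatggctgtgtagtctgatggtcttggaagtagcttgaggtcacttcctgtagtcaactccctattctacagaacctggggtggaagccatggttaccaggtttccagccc
Lpin2 (chr17:71183282-71183531, plus strand): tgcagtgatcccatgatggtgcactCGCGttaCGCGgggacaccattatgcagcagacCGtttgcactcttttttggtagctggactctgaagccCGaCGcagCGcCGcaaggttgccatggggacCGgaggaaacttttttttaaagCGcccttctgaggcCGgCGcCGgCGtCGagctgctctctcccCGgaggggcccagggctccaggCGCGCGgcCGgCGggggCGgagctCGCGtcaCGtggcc
G0s2 (chr1:193273189-193273438, minus strand): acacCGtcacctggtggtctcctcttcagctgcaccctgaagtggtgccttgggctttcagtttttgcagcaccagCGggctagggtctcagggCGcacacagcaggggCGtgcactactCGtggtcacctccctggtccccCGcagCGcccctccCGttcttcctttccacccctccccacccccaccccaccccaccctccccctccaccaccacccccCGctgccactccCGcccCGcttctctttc
The Lpin1 window held 1 CpG, and 7.87% of all 32851 promoters of the table held fewer. The window shown for Lpin2 held 26, with fewer in 90.4% of promoters, and that of G0s2 held 11, with fewer in 64.4%. The median promoter had 6. Lpin2 has 3 starts in the table, and its other windows held 50 and 3 CpG. The Lpin1 start in the table lies inside the annotated gene, which runs from 16535669 to 16653903 on chromosome 12.

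Short letter patterns of 5 factors were searched on both strands in the 300 bases around each start, 250 before and 50 after. The E-box CACGTG, found in 7.15% of all promoters, was present in the Lpin2 window shown above, beginning 9 bases before the start. The kappa-B core GGGNNNTCC, found in 17.8% of all promoters, was present at another start of Lpin2, at Pnpla2 and at Pnpla3. The C/EBP letters TTGCNNAA, in 10.8% of all promoters, were present once each at Cidec, Gpam and the remaining start of Lpin2. The glucocorticoid element core ACANNNTGT (6.85% of all promoters) and the PPAR element core GTCANAGGT (1.14%) had no match in the 12 promoters. None of the 5 patterns occurred in the Lpin1, G0s2 or Agpat2 windows. These are matches of letters only.

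**Figure D1:**
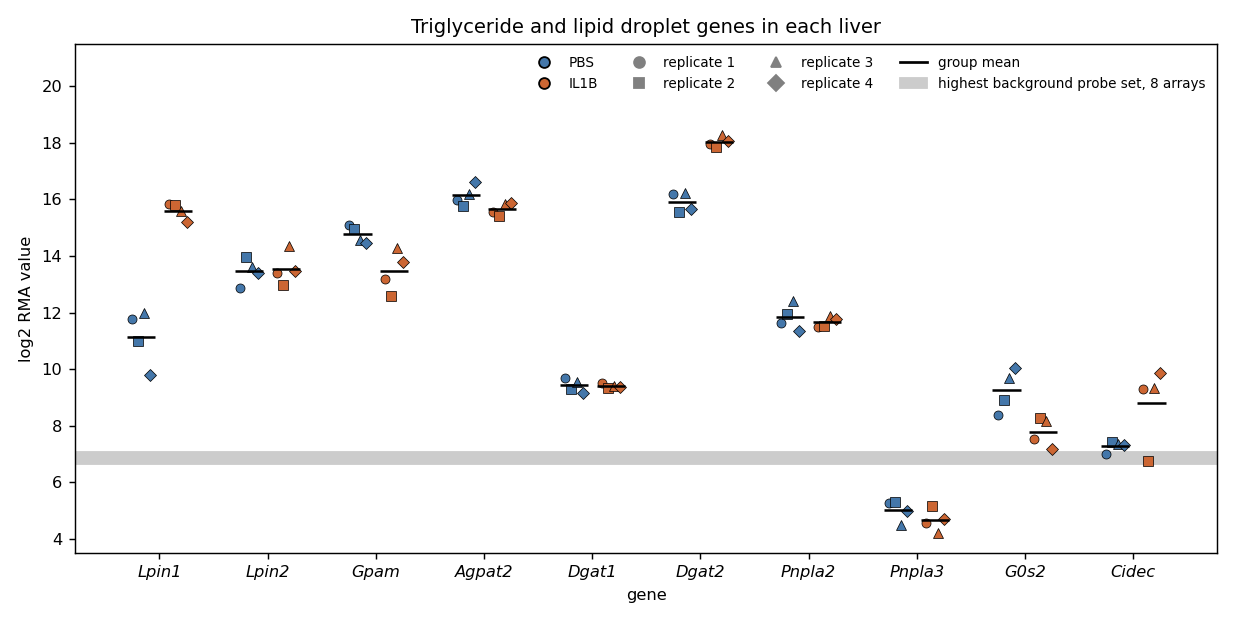
Log2 RMA value (vertical axis) of the 10 genes (horizontal axis) in each of 4 PBS (blue) and 4 IL1B (orange) livers, with the marker shape giving the replicate number, black bars the group means and the grey band the range of the brightest background probe set. Lpin1 and Dgat2 lie higher in every IL1B liver than in any PBS liver, Gpam and G0s2 lie lower, Cidec is split within the IL1B group, and Pnpla3 lies below the band throughout.

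Of the 10 genes, IL1B livers had 2 with a higher and 2 with a lower level. A gene is called higher or lower here where its limma p is no more than 0.05 after Benjamini-Hochberg adjustment across the 22180 genes. Among all genes 12.5% were called, 7.19% as higher and 5.32% as lower. Lpin1 and Dgat2 were the genes called higher, and Gpam and G0s2 those called lower. With a looser cutoff of 0.15, Cidec joined them as higher, which made 5 of 10 against 23.6% of all genes. Groups did not overlap in the 4 genes called at 0.05, against 19% of all genes. The median log2 fold change of the 10 genes was -0.1, next to -0.06 over all genes. The 10 genes were chosen by name with earlier results of these data known. These counts therefore describe the genes and say nothing of the pathway as a whole.

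Lpin1, which encodes the phosphatidate phosphatase lipin 1, also a nuclear coactivator of fatty acid oxidation genes, rose more than any other member. Its values were 11.76, 10.99, 12.00 and 9.79 in PBS livers 1 to 4, and 15.83, 15.82, 15.58 and 15.20 in IL1B livers 1 to 4. The IL1B livers lay close together and far above all PBS livers, whose own values were spread more widely, with PBS 4 the lowest. The mean went from 11.13 ± 1.00 to 15.61 ± 0.30 (SD, n = 4), a log2 fold change of 4.47 ± 0.43 (SE; 95% interval 3.52 to 5.43), or 22.2-fold, with a limma adjusted p of 0.00025. In the ranking of log2 fold changes Lpin1 stood 30th of 22180 genes. With 1 array left out it ranged from 4.03 to 4.76 and was called in all 8 fits. It was 4.26 with IL1B 3 and 4 alone and 4.69 with IL1B 1 and 2 alone.

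Lpin2, the lipin 2 gene and the main other lipin of liver, showed no such change. Its values were 12.88, 13.95, 13.61 and 13.40 in PBS, and 13.40, 12.96, 14.35 and 13.48 in IL1B. The groups overlapped over most of their range. The log2 fold change was 0.09 ± 0.31 (95% interval -0.62 to 0.79, adjusted p = 0.899), an interval that leaves room for a change in either direction. Both array features of Lpin2 gave like differences, 0.10 and 0.07. Lpin3, the third lipin gene, was at background in all 8 livers.

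The response of the lipins was compared directly as the within-array difference Lpin1 less Lpin2. This difference was -1.11, -2.97, -1.62 and -3.61 in PBS and 2.43, 2.86, 1.23 and 1.72 in IL1B. It was negative in every PBS liver and positive in every IL1B liver. Because the probes of separate genes differ in brightness, the sign in a single liver is not a ratio of transcripts, and only the shift between groups is read. That shift was 4.39 (two-sided exact permutation p = 0.0286, the smallest that 70 assignments allow; adjusted p = 0.0429 over 3 pairs of related genes).

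Ctdnep1 encodes the catalytic subunit of the nuclear envelope phosphatase that dephosphorylates lipin 1, and Cnep1r1 its regulatory subunit. Ctdnep1 was 6.50, 6.97, 7.05 and 6.85 in PBS and 8.53, 7.84, 7.79 and 7.91 in IL1B. All IL1B livers lay above all PBS livers, and PBS 1 was below the background mark of its array. It rose by 1.18 ± 0.20 (adjusted p = 0.00506), whereas Cnep1r1 was at 0.08 ± 0.14 (adjusted p = 0.749). The difference between the subunits was not tested. Ctdnep1 was called in all 8 fits with 1 array left out, with values from 1.01 to 1.25.

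Likeness to Lpin1 over the 8 livers was ranked among 8162 genes, each above background in all livers of at least 1 group. Members, predicted genes and genes saturated in a group were left out. The closest were Tubb6 (a beta tubulin gene), Xdh (xanthine dehydrogenase, of purine breakdown) and Ehd1 (endocytic recycling). Next came Garem1 (an adaptor of growth factor signalling) and Fh1 (fumarate hydratase). In that order, the Pearson correlations of these genes with Lpin1 were 0.9922, 0.9896, 0.9892, 0.9879 and 0.9866. Since the PBS and IL1B livers form separate clusters, these correlations mostly carry the group difference. With each group centred on its own mean they were 0.92, 0.89, 0.85, 0.82 and 0.85, over 8 livers that share 1 experiment and picked as the closest of all genes ranked. Log2 fold changes of these genes ranged from 0.77 ± 0.13 for Fh1 to 1.85 ± 0.15 for Xdh, all smaller than that of Lpin1. Ehd1 had a PBS mean of 6.57, below the lowest background mark of 6.65. Its change and its correlations are thus partly read from background.

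Gpam encodes an acyltransferase of the first step of the pathway, and fell. Its values were 15.08, 14.96, 14.56 and 14.45 in PBS, and 13.17, 12.60, 14.28 and 13.79 in IL1B. Every IL1B liver was below every PBS liver, but IL1B 3 came close to PBS 4, while IL1B 2 lay furthest down. The log2 fold change was -1.30 ± 0.33 (95% interval -2.05 to -0.55, adjusted p = 0.0322), a 2.46-fold lower mean. The call was kept in 3 of 8 fits with 1 array left out (PBS 4, IL1B 3 or IL1B 4) and lost in the others, with values from -1.57 to -1.01 and adjusted p from 0.0121 to 0.0922. Of 22180 genes, 1.35% had a lower log2 fold change. Gpat4, another acyltransferase gene of the first step, was not called, at -0.07 ± 0.14 (adjusted p = 0.817). The difference between Gpam and Gpat4 was not tested. Gpat2 was at background in both groups. Gpat3 was above background in only 1 of 4 PBS livers and in no IL1B liver, and was not called (adjusted p = 0.0652).

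The IL1B livers with the lowest Gpam also had the highest leukocyte markers. The mean of 10 neutrophil markers was 4.79 to 5.31 over the PBS livers, and 10.58, 10.99, 7.28 and 7.19 in IL1B livers 1 to 4. That of 10 Kupffer cell markers, the markers of liver macrophages, was 9.80 to 10.93 over PBS, and 13.04, 12.48, 10.48 and 9.88 in IL1B 1 to 4. IL1B 1 and 2 were thus above all other livers on both lists, and IL1B 3 and 4 were within the PBS range for Kupffer markers. Of the neutrophil markers 8 were called higher and none lower, and 9, S100a8, Retnlg and Mmp8 among them, were at background in all PBS livers. Of the Kupffer markers none was called by limma, and 2, Marco and Cd163, had an unadjusted p under 0.05. Of 8 endothelial markers 1 was called higher and 4 lower, and of 8 stellate cell markers 1 was lower. With IL1B 3 and 4 alone against the 4 PBS livers, Gpam was at -0.73 ± 0.24 (adjusted p = 0.13), and with IL1B 1 and 2 alone at -1.88 ± 0.25 (adjusted p = 0.00332). These pairs were chosen after the data were seen. IL1B 1 and 2 held the lowest Gpam values, so a larger fall in that pair was fixed in advance. The part of the marked cell types in the Gpam result was not tested.

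**Figure D2:**
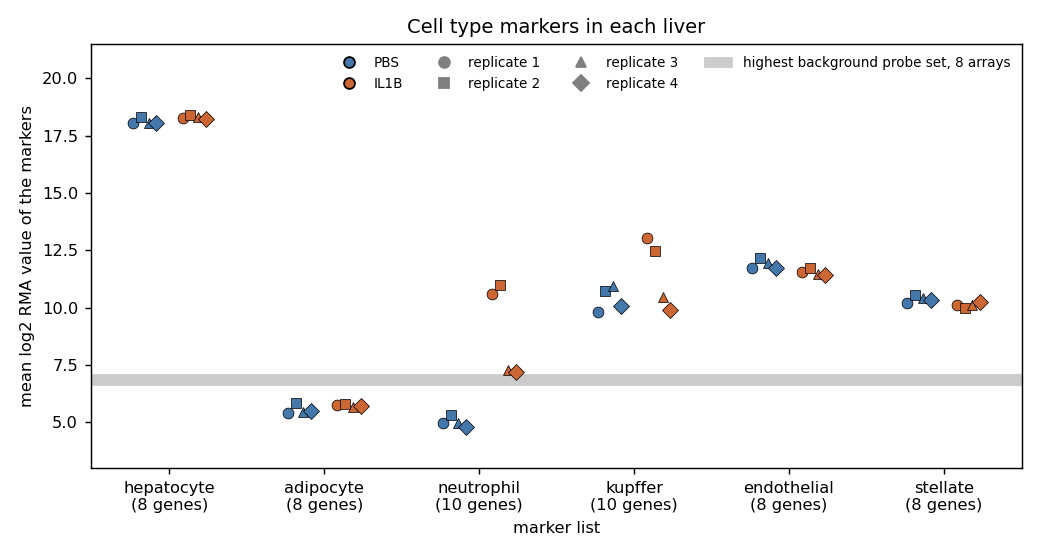
Mean log2 RMA value (vertical axis) of the markers of 6 cell types (horizontal axis, with the number of measured markers) in each PBS (blue) and IL1B (orange) liver, with the grey band marking the brightest background probe set. Neutrophil markers lie higher in all IL1B livers than in any PBS liver, Kupffer markers lie above all other livers in IL1B 1 (13.04) and IL1B 2 (12.48), and adipocyte markers lie below the band in all livers.

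Agpat2, which encodes the enzyme of the second acylation, had values of 15.99, 15.77, 16.20 and 16.63 in PBS and 15.55, 15.40, 15.83 and 15.87 in IL1B. The IL1B livers lay at the low end, but the groups overlapped. The log2 fold change of -0.49 ± 0.20 (95% interval -0.94 to -0.03) did not pass the test (adjusted p = 0.158), and no fit with 1 array left out called it.

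Dgat2 encodes the diacylglycerol acyltransferase tied to newly made fatty acids in hepatocytes, and was the second of the genes that rose. Its values were 16.21, 15.55, 16.23 and 15.67 in PBS, and 17.96, 17.87, 18.29 and 18.07 in IL1B. All IL1B livers were well above all PBS livers, with a small spread in each group. The log2 fold change was 2.13 ± 0.19 (95% interval 1.70 to 2.56), or 4.39-fold, with an adjusted p of 0.000177. All values stayed below the saturation mark of 18.93. With 1 array left out it was called in all 8 fits, at 2.01 to 2.24, and it was 2.27 with IL1B 3 and 4 alone and 2.00 with IL1B 1 and 2 alone.

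Dgat1 encodes the other diacylglycerol acyltransferase, an enzyme of a separate protein family that takes up preformed fatty acids. Its values were 9.69, 9.31, 9.55 and 9.15 in PBS, and 9.49, 9.34, 9.40 and 9.37 in IL1B. The IL1B values all fell within the PBS range, giving a log2 fold change of -0.03 ± 0.15 (95% interval -0.36 to 0.30, adjusted p = 0.939). The within-array difference Dgat1 less Dgat2 was -6.52, -6.24, -6.67 and -6.53 in PBS and -8.46, -8.54, -8.89 and -8.71 in IL1B. The groups were far apart and each was narrow, with a change of -2.16 (exact permutation p = 0.0286, two-sided, the smallest possible; adjusted p = 0.0429 over 3 pairs). These 2 gene pairs thus shifted, the lipins towards Lpin1 and the diacylglycerol acyltransferases towards Dgat2. The shifts restate the rises of Lpin1 and Dgat2 beside partners that were not called. Genes of the earlier acylation steps were not compared in this way.

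**Figure D3:**
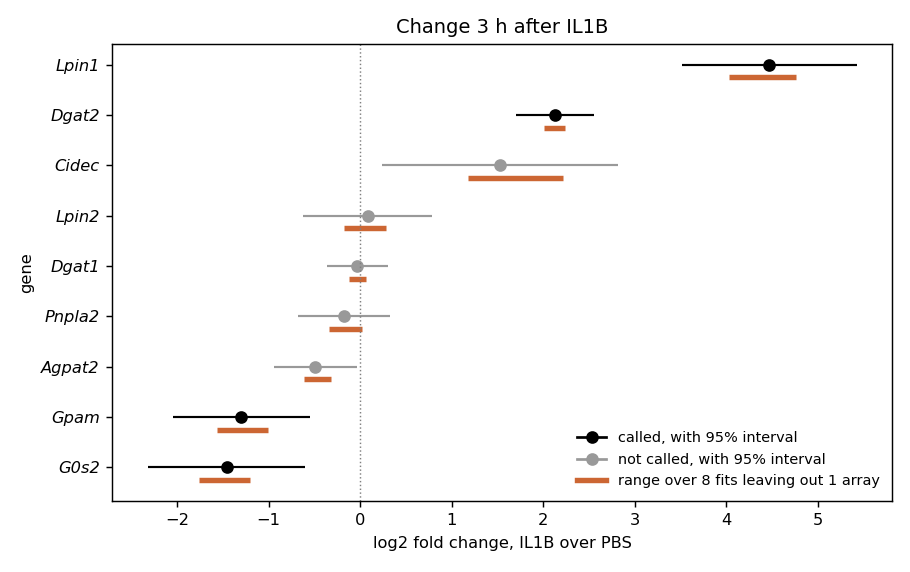
Log2 fold change of IL1B over PBS (horizontal axis) for 9 of the 10 genes (vertical axis), with Pnpla3 left out as at background, where points are limma estimates with 95% intervals (black where called, grey where not) and orange bars span the 8 fits that left out 1 array. Lpin1 at 4.47 and Dgat2 at 2.13 lie far to the right, with orange bars from 4.03 to 4.76 and from 2.01 to 2.24, and the bar of Cidec reaches from 1.18 to 2.22.

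On the side of triglyceride breakdown, G0s2, the inhibitor of ATGL, fell while its target did not pass the test. G0s2 was 8.36, 8.89, 9.69 and 10.04 in PBS, and 7.54, 8.26, 8.16 and 7.17 in IL1B. The groups did not overlap, although PBS 1 lay just above IL1B 2. The log2 fold change was -1.46 ± 0.38 (95% interval -2.32 to -0.60, adjusted p = 0.0357), a 2.75-fold lower mean. The call was kept in 2 of 8 fits with 1 array left out (PBS 1 or IL1B 2) and lost in the other 6, with values from -1.76 to -1.20 and adjusted p from 0.0198 to 0.093. It was also lost with IL1B 3 and 4 alone (-1.58, adjusted p = 0.102) and with IL1B 1 and 2 alone (-1.34, adjusted p = 0.112), in fits with fewer livers.

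The G0s2 mean joins features of unequal brightness. The brighter one was 10.76, 11.53, 12.42 and 12.95 in PBS and 9.15, 10.43, 10.15 and 9.0 in IL1B. It was above background in all 8 livers, its groups did not overlap, and its difference was -2.23. The dimmer one was above background in only 2 livers, overlapped between groups and differed by -0.69. The average over both is therefore smaller than the difference of the brighter feature, by more than 1.5 times.

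Pnpla2, the gene of ATGL itself, was 11.62, 11.96, 12.42 and 11.35 in PBS and 11.49, 11.52, 11.86 and 11.77 in IL1B. The IL1B values lay within the PBS range, with a log2 fold change of -0.18 ± 0.23 (95% interval -0.68 to 0.33, adjusted p = 0.67). Abhd5, the gene of the ATGL activator CGI-58, was at -0.30 ± 0.30 (adjusted p = 0.582). Pnpla3 was at background in all 8 livers, with values from 4.20 to 5.31, so no fold change is given for it. The third pair of related genes, Pnpla2 less Pnpla3, therefore reads Pnpla2 against background, and shifted by 0.19 (two-sided exact permutation p = 0.6, adjusted p = 0.6).

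Cidec, which promotes the fusion and growth of lipid droplets, was the member whose IL1B livers disagreed. It was 6.98, 7.41, 7.35 and 7.33 in PBS, close to background, and 9.28, 6.73, 9.32 and 9.87 in IL1B. IL1B 1, 3 and 4 were well above the highest PBS liver, and IL1B 2 was below the lowest. Over all livers the log2 fold change was 1.53 ± 0.57 (95% interval 0.24 to 2.82) and did not pass the test (adjusted p = 0.121). Without IL1B 2 it was 2.22 with an adjusted p of 0.000335, and in the 7 other fits that left out 1 array it was not called. It was 2.33 with IL1B 3 and 4 alone (adjusted p = 0.00103) and 0.74 with IL1B 1 and 2 alone (adjusted p = 0.5). IL1B 2 did not differ in this way for Lpin1 or Dgat2. It was, however, also the lowest liver for Gpam (12.60), Ces3b (13.31) and Plin2 (15.00). Of the 8 livers it had the lowest mean in every pathway list described below, lipases (10.92) and droplet genes (10.69) among them, except acyltransferases and lipins. There it was 7.96, against 7.94 in IL1B 4. Of the adipocyte markers, 7 of 8 were at background in both groups, Adipoq, Lep and Plin1 among them. Fabp4, the marker above background, was 9.75 to 11.37 in PBS and 12.29, 12.84, 11.02 and 11.15 in IL1B 1 to 4 (adjusted p = 0.0632). It was highest in IL1B 2, where Cidec was lowest. IL1B 1 and 2 were also the livers with the highest leukocyte markers. The cell type behind the Fabp4 signal was not tested.

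The rest of the pathway was read from 7 lists of 98 genes, of which 89 were measured. Of these 5 were called higher and 7 lower, 13.5% in all, near the 12.5% of all genes. The median log2 fold change was -0.3 against -0.06 over all genes. Genes at background are included in the lists and in all genes, and shares without them are not given here. The count of lower genes depended strongly on the arrays and the processing, from 3 to 19 between alternatives at the same threshold. The nearness to the share of all genes is that of the main fit and did not hold under every alternative.

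Of 12 measured acyltransferases and other lipins, 5 were at background in both groups, and Tmem68, which encodes an acyltransferase that can make triglyceride, was the gene called. It rose by 0.61 ± 0.15 (adjusted p = 0.026), a call lost when PBS 1, 3 or 4 or IL1B 1, 3 or 4 was left out (0.56 to 0.70). The list median was -0.15. Among 13 measured genes that supply glycerol 3-phosphate and acyl chains, 2 were lower and none higher. Slc27a2, which encodes a fatty acid transporter and very long chain acyl-CoA synthetase, fell by 1.12 (SE 0.21, adjusted p = 0.00774) and was called in all 8 fits with 1 array left out. Aqp9, the gene of the glycerol channel of hepatocytes, fell by 0.85 (SE 0.24, adjusted p = 0.0455). In the 8 fits with 1 array left out (-1.03 to -0.70), it was called only without PBS 2 or IL1B 3. It was at -0.60 with IL1B 3 and 4 alone. Of 18 measured genes that use phosphatidate and diacylglycerol, the kinases and the phospholipid branch included, Ctdnep1 was the only one called.

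Of 19 measured lipases and cofactors other than those above, 3 were lower and 1 higher, with a median of -0.6. Ces3b, a carboxylesterase gene of the endoplasmic reticulum, was 15.98, 15.95, 15.51 and 15.89 in PBS and 14.31, 13.31, 14.35 and 14.71 in IL1B. All IL1B livers were clearly lower than any PBS liver, with IL1B 2 the lowest. It fell by 1.66 (SE 0.28, adjusted p = 0.00474). Lipa, the gene of lysosomal acid lipase, fell by 0.78 (SE 0.13, adjusted p = 0.00547), and both were called in all 8 fits with 1 array left out. Pnpla7 was the remaining gene called lower (-0.50 ± 0.14, adjusted p = 0.0484). Pnpla6, which like Pnpla7 encodes a lysophospholipase rather than a triglyceride lipase, rose by 0.74 ± 0.20 (adjusted p = 0.0379). In fits with 1 array left out, its call was kept only without PBS 2 or PBS 4 (0.55 to 0.82). Quantile normalisation (limma adjusted p = 0.0672) and the replicate number as a block (0.0749) also lost it.

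Among 13 measured genes of droplet coat and biogenesis, Rab18, a small GTPase gene of the droplet surface, was called, as higher (0.71 ± 0.17, adjusted p = 0.0232), and kept that call in 3 of 8 fits (PBS 3, PBS 4 or IL1B 2 left out; 0.63 to 0.84). Plin2, the gene of the main droplet coat protein of hepatocytes, was 16.23, 16.73, 16.73 and 17.53 in PBS and 15.80, 15.00, 16.27 and 15.72 in IL1B. All IL1B livers except IL1B 3 were below the lowest PBS liver. Its log2 fold change of -1.11 ± 0.32 missed the threshold narrowly (adjusted p = 0.0509), and with 1 array left out it ranged from -1.30 to -0.87 (adjusted p from 0.0374 to 0.106), called when PBS 1 or IL1B 3 was left out and in none of the other 6 fits. It was -0.81 with IL1B 3 and 4 alone (adjusted p = 0.225) and -1.41 with IL1B 1 and 2 alone (adjusted p = 0.0468).

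Of 8 measured genes of very low density lipoprotein assembly, 1 rose and 1 fell, both of transport out of the endoplasmic reticulum. Surf4, a cargo receptor gene, rose by 0.73 ± 0.14 (adjusted p = 0.00947), in all 8 fits with 1 array left out. Sar1b, the gene of a COPII coat GTPase, fell by 0.82 (SE 0.19, adjusted p = 0.0238). Its call was kept in 2 of 8 fits with 1 array left out (PBS 2 or IL1B 4; -0.97 to -0.70). It was also kept in 7 of 7 alternatives that used all arrays. Apob was saturated in both groups and could not be read. Of 6 transcriptional regulators, Ppargc1b, a coactivator gene of lipid metabolism, was called, as lower. It was 6.94, 7.96, 7.71 and 7.72 in PBS and 6.41, 6.85, 6.24 and 6.18 in IL1B, above background in only 4 of the 8 livers. The log2 fold change was -1.16 ± 0.24 (adjusted p = 0.0129), with 1 of 4 IL1B livers above background.

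**Figure D4:**
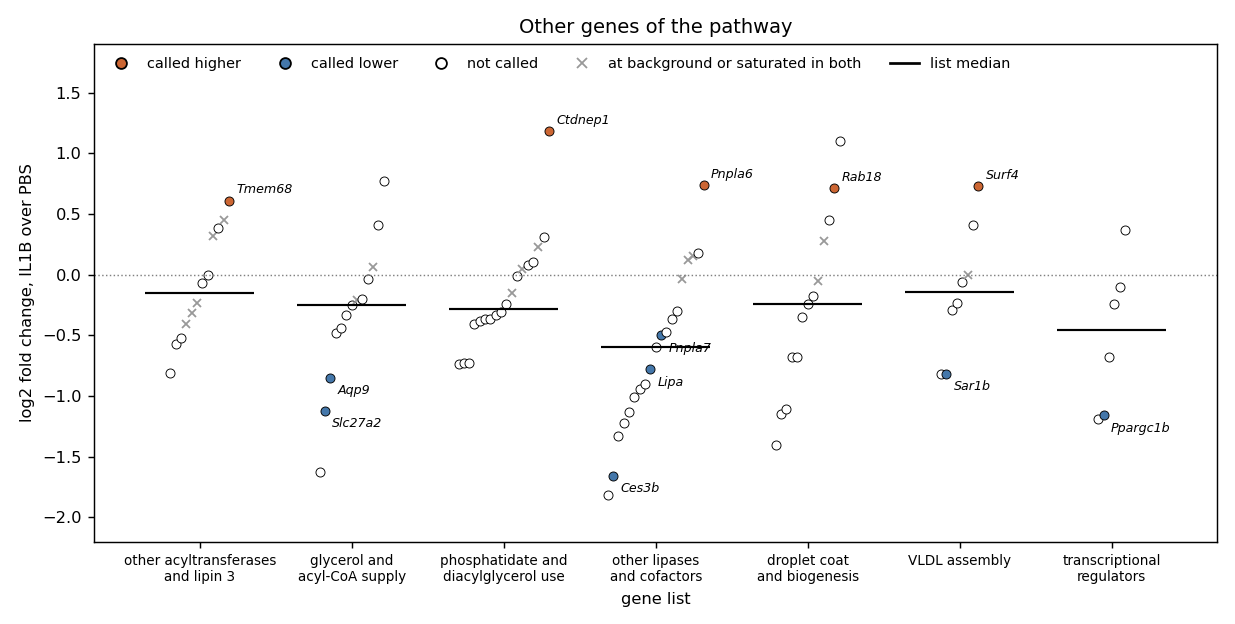
Log2 fold change of IL1B over PBS (vertical axis) for the 89 other measured genes of the pathway in 7 lists (horizontal axis), with filled points for called genes, open points for genes not called, crosses for genes at background or saturated in both groups, and black bars for list medians. Every list median is below 0, from -0.14 to -0.6, and called genes lie on both sides.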

How the data were processed

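The authors deposited 1 table on the log2 scale, computed by RMA in Affymetrix Power Tools (run through Galaxy) after scaling of intensities and, where offered, GC correction, version not given in the sources used. RMA normalises between arrays, so a shift shared by all genes would be partly removed. Of 41345 features, 23521 had 1 gene symbol in the platform annotation and were averaged to 22180 genes, which follows the study's methods; 1820 with several symbols and 16004 with none were not named. Samples were grouped by title.

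Each gene was tested with limma 3.58.1 (R 4.3.3) on 8 arrays with group as the only factor, with Benjamini-Hochberg adjustment over all genes. Calls were made at 0.05, and the methods' cutoff of 0.15 was an alternative. The fit was checked on simulated data in which 200 genes were changed. It recovered 4.8% of changes of 0.5 log2 units and 49.6% of changes of 1. For changes of 2 and 4 it recovered 86.4% and 98%, and 4.57% of calls were false. The lack of a call therefore does not show that a gene changed by less than 1 unit. Members and lists were chosen with earlier results of these data known. The rule for named genes took all members, Lpin3, Abhd5, Plin2, up to 2 called genes per list and direction, and the 5 closest patterns to Lpin1. Cnep1r1, Pnpla7, Gpat2, Gpat3, Gpat4, Fabp4 and the markers were named after their values were seen, as were the bases marked in the promoters. Of 152 list entries, 141 were measured. Coordinates and promoters are from RefSeq (GRCm38.p6). Alternatives rescaled the arrays (quantiles or medians), took each gene's brightest feature, removed dim genes, weighted arrays, used trend and robust options in eBayes, blocked on the replicate number, or left out arrays. Equal values in a pair of arrays made up at most 0.341% of features, and each array counted as 1 sample. The labels name no batch, 4 arrays per group limit the precision, and the spread behind each p-value is that between these mice.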

Additional observations from a re-analysis of the deposited data

Results flagged for a closer look

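In the IL1B group, Ctdnep1 was 8.53 in IL1B 1, while the other 3 livers lay between 7.79 and 7.91, a gap that passed Dixon's test for a sample far from the others. With 54 groups of 4 tested, chance alone would mark about 1 in 20. Without IL1B 1 the log2 fold change of Ctdnep1 was 1.01 and it was still called.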

How the results depend on the processing

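The members called higher were 2 or 3 under every alternative run. The members called lower, 2 in the report, were 0 with the replicate number as a block (adjusted p = 0.0657 for Gpam and 0.0515 for G0s2) and 0 to 1 with 1 array left out. They were 0 with IL1B arrays 3 and 4 alone and 1 with IL1B arrays 1 and 2 alone, alternatives chosen after seeing the data. Same-numbered arrays had correlations of deviations between -0.073 and 0.223, with 3 PBS and 2 IL1B arrays closest to their own number. These values do not settle whether the numbers pair the mice. The labels name no pairing, and the block was run as an alternative only. Pathway genes called higher, 5 in the report, were 3 after quantile normalisation, 3 with the block, 2 with either pair of IL1B arrays and 2 to 5 with 1 array left out. Those called lower, 7 in the report, were 19 after quantile normalisation, 17 with the filter on dim genes, 11 with array weights, 16 with the block, 28 at 0.15, 3 with IL1B 3 and 4 alone, 17 with IL1B 1 and 2 alone and 4 to 15 with 1 array left out (4 without PBS 3, IL1B 1 or IL1B 2, 13 without IL1B 4, 15 without PBS 2). The cause was not tested.

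Over all genes, 1594 were higher and 1179 lower in the report, and 2634 and 2592 at 0.15. After quantile normalisation these counts were 1367 and 1523, and with the filter on dim genes 1783 and 1147. They were 1647 and 1296 with array weights, and 1468 and 1094 with the block. In proportion, the count of lower pathway genes rose more in these settings than that of all genes. With 1 array left out 1082 to 1399 were higher and 676 to 1077 lower. With IL1B 3 and 4 alone 1030 were higher and 530 lower, in a fit of fewer arrays. Plin2 was also called after quantile normalisation (-1.10), with the filter (-1.11), with eBayes trend and robust (-1.11) and with IL1B 1 and 2 alone (-1.41), but not with median centring (adjusted p = 0.0605), the brightest feature (0.051), array weights (0.0669), the block (0.0576) or IL1B 3 and 4 alone (-0.81, adjusted p = 0.225). G0s2 was at -2.23 with its brightest feature.

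The shift of Lpin1 less Lpin2 was 3.96 to 4.79 with 1 array left out, 3.80 with IL1B 3 and 4 alone and 4.97 with IL1B 1 and 2 alone. That of Dgat1 less Dgat2 was -2.22 to -2.07, -2.31 and -2.01. Exact p-values in these smaller sets could not reach 0.05 after adjustment (adjusted p = 0.0857 with 1 array left out and 0.2 with 2), so the loss of the call there says nothing of stability. Of the values of single genes under the alternatives, 60 lost their call, 10 gained one, 360 kept their side of the threshold and 0 reversed a called direction.

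Limits are the 4 mice per group, the strain labels, the background at which Pnpla3 and partly Cidec, Ctdnep1 and Ppargc1b lie, and the ceiling that hides the hepatocyte markers.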
